A study of Rattus norvegicus with 24 samples.

Results

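The genes described here carry fructose and glucose through the liver cell: the transporters Slc2a2 and Slc2a5, ketohexokinase (Khk), the glycolytic genes Pklr and Pfkfb3, and the gluconeogenic genes G6pc, Pck1 and Fbp1. They were chosen by name, as all probes whose gene name on the array is one of these 8. All 8 were measured, by 11 probes, among 18641 genes tested. Levels came from the livers of 24 male Wistar rats, 1 array per rat. The rats had eaten Mazuri pellets until 6 months of age and then 1 of 4 purified diets of the AIN76A type for 12 weeks, so that they were 9 months old at the end. The 4 diets, with 6 rats each, are named CuD/30%, CuA/30%, CuD/10% and control. CuD stands for deficient copper, under 0.3 mg per kg of diet, CuA for adequate copper, 125 mg per kg (called high in the samples' source names), the percentage is the share of sucrose, and the control diet was CuA with 10% sucrose. Starch and dextrin kept total carbohydrate equal across the diets. The rats were separate animals, and the RNA was from whole liver, in which fewer cells of a type and less RNA per cell cannot be told apart.

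Sucrose is split in the gut into glucose and fructose, and the liver takes up most of the fructose that reaches it. Ketohexokinase phosphorylates fructose to fructose 1-phosphate, which enters the triose pool below phosphofructokinase, the main control point of glycolysis, so that fructose can feed pyruvate and fat synthesis with little restraint. When carbohydrate is plentiful, the transcription factor ChREBP, encoded by Mlxipl, switches on Pklr and the fat synthesis genes, and insulin holds down G6pc and Pck1, which fasting raises.

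The level of a gene is given as log2 of its processed signal over the 75th percentile of its array, so that 0 equals that percentile, and where several probes name a gene the brightest was used. Levels of different genes are not compared, since each probe has its own brightness. Differences are on the log2 scale and were tested with limma over all 18641 genes, and a gene is called where its Benjamini-Hochberg adjusted p is under 0.05. The arrays lay on 3 slides of 8, which the diets did not fill evenly. Slide 1 carried every CuD/30% rat and 2 of the CuA/30% rats, slide 2 carried 4 CuA/30% and 4 CuD/10% rats, and slide 3 carried 2 CuD/10% rats with the 6 controls. CuD/30% was never beside CuD/10% on a slide, nor CuA/30% beside the control diet, so sucrose differences rest on arrays of different slides, and a second model had a term for slide (slide as a block), whose values are given for each of the 8 genes. Between 64.1% and 74.7% of an array's spots were well above background, and the 75th percentile of the signal was 433 to 1284. All 8 hepatocyte markers were measured, and their mean level per liver was between 6.56 and 7.56 over the 4 diets.

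**Figure D1:**
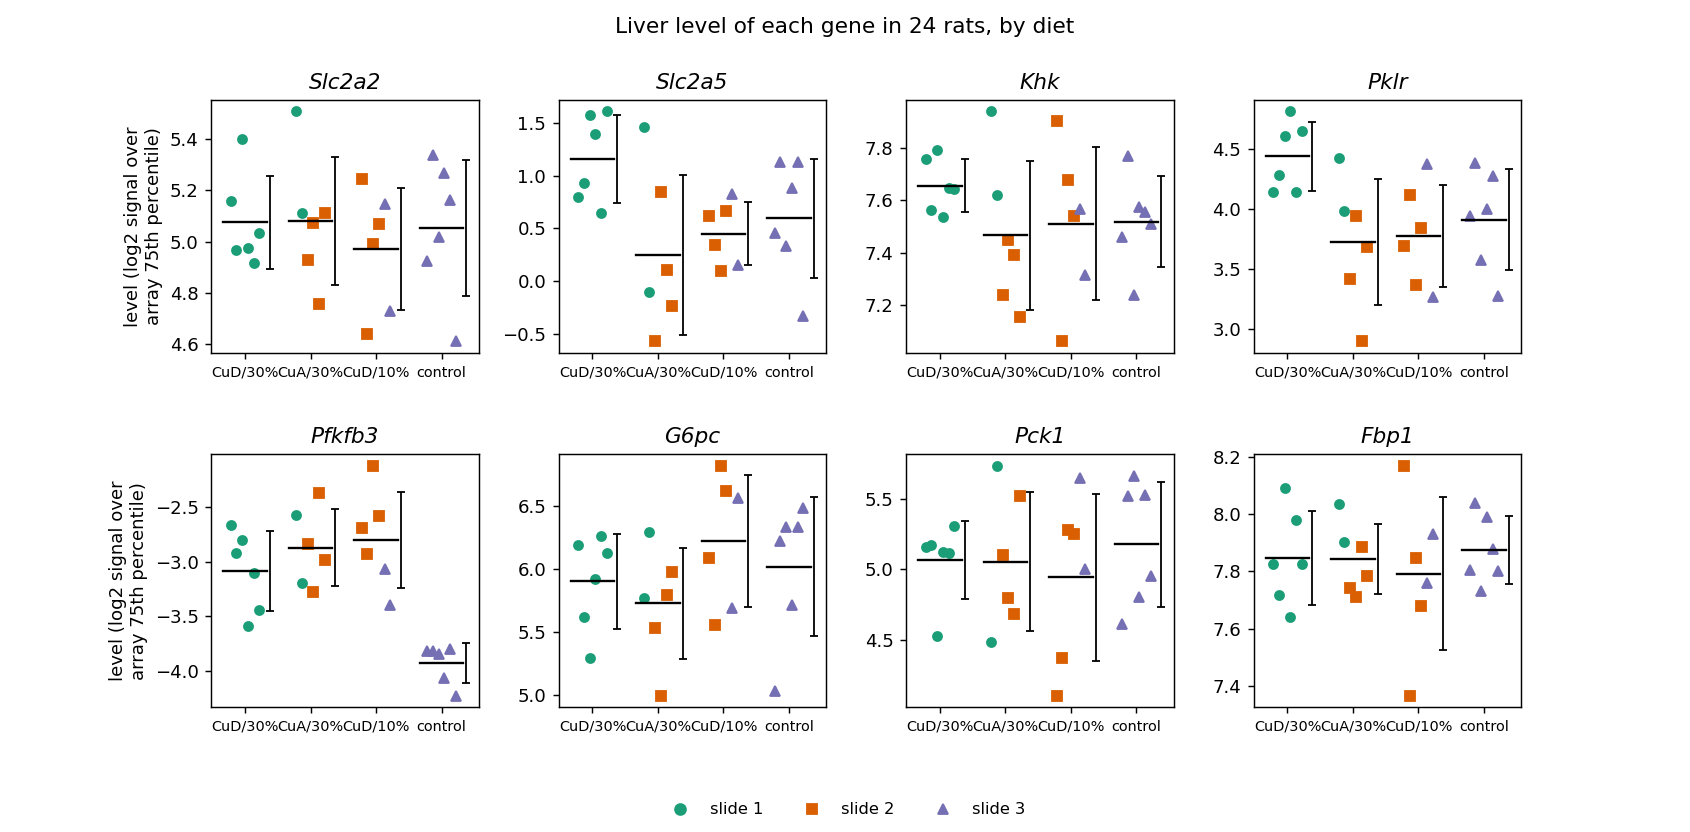
Level of each of the 8 genes (log2 signal over the array's 75th percentile, vertical axis) in the 24 rats by diet. Each symbol is 1 rat, its shape and colour give the slide, the line is the diet's mean and the bar its SD (n = 6). The 6 control rats have the lowest Pfkfb3 levels, between -4.23 and -3.79, and in the other 7 genes the diets overlap.

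Slc2a2 encodes GLUT2, the transporter that moves glucose and fructose across the hepatocyte's blood-facing membrane. Its level per rat was lowest 4.91, median 5.005 and highest 5.40 on CuD/30%, and 4.75, 5.09 and 5.51 on CuA/30%. It was 4.64, 5.03 and 5.24 on CuD/10%, and 4.61, 5.09 and 5.34 on the control diet. All 4 diets overlapped, and their means lay between 4.97 and 5.08. The differences over the 5 comparisons between pairs of diets were between -0.08 and 0.10, with 95% confidence intervals that stayed within -0.37 and 0.39, and the smallest adjusted p was 0.778. In the fit with a slide term all 5 differences were below 0, between -0.37 and -0.12, within intervals of -1.03 to 0.40.

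Slc2a5 encodes GLUT5, a transporter specific for fructose and known best from the gut. On CuD/30% its level was lowest 0.64, median 1.16 and highest 1.61, and on CuA/30% it was -0.57, 0.00 and 1.46. On CuD/10% it was 0.09, 0.48 and 0.83, and on the control diet -0.33, 0.67 and 1.13. The 6 rats on CuD/30% were all above the mean of every other diet, and 4 of them were above the highest rat on CuD/10%. Slc2a5 averaged 1.16 ± 0.42 on CuD/30%, against 0.25 ± 0.76 on CuA/30% (SD, n = 6 each). That is a difference of 0.91 ± 0.29 (SE), or 1.88-fold, with an adjusted p of 0.463 in limma. Against the mean of 0.45 ± 0.30 on CuD/10% the difference was 0.71 ± 0.29 (SE), with an adjusted p of 0.483. With slide as a block these differences were 0.48 and 0.08. The copper difference at 30% sucrose exceeded that at 10% sucrose by 1.06 ± 0.42 (SE), with an adjusted p of 0.0749. This last value was called without rat 1 on CuA/30% (1.297) and without rat 6 of the control diet (1.24), and it was 0.59 and not called with slide as a block. Of all genes, 20.8% were called for the same measure with all 24 rats. Leaving out 1 rat in turn, 3054 to 4828 of the 18641 genes were called.

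Khk, the enzyme that commits fructose to metabolism, had levels of lowest 7.53, median 7.65 and highest 7.79 on CuD/30%, and 7.15, 7.42 and 7.94 on CuA/30%. On CuD/10% it had 7.06, 7.55 and 7.90, and on the control diet 7.24, 7.53 and 7.77. The rats on CuD/30% lay closest together (SD 0.10), and all 6 were above the mean of each other diet, as for Slc2a5. All diets overlapped. The differences were between -0.05 and 0.19, within intervals of -0.33 to 0.47, and the smallest adjusted p was 0.601. All 5 were below 0 with slide as a block, between -0.44 and -0.08 within -1.03 to 0.28, so the 3 that had been above 0 (copper at 30% sucrose, sucrose at low copper, and both changes) turned direction, and none was called. A second Khk probe, designed on another transcript, had a Pearson r of 0.47 and a Spearman rho of 0.30 with the first over the 24 rats. Its differences were between 0.01 and 0.14. The probes disagreed in direction for copper at 10% sucrose (-0.01 on the first and 0.05 on the second) and for sucrose at adequate copper (-0.05 and 0.01).

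Pklr encodes the pyruvate kinase of liver and red blood cells, which makes pyruvate in the last step of glycolysis. The 250 bases before its start in RefSeq (build GRCr8, chr2:176841014-176841263, plus strand) are shown because Pklr is the member whose known response to carbohydrate runs through a promoter element. The capitals mark CACGNG followed, after any 5 bases, by CNCGTG, a pair of E-box-like motifs spaced as in the carbohydrate response element that ChREBP is known to bind.
Pklr: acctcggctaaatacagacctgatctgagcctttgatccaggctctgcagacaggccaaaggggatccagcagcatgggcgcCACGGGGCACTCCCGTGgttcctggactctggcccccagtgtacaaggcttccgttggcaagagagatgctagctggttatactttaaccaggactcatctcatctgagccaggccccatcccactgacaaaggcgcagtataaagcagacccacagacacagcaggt
The match begins at position -168, counted back from the start, and the search is the same on both strands. This motif pair stands in 7 of 33469 such windows (0.0209%) and, of the 8 genes, in that of Pklr. A match is a description of letters and not a measurement of binding.

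The Pklr level was lowest 4.14, median 4.44 and highest 4.81 on CuD/30%, and 2.90, 3.81 and 4.42 on CuA/30%. On CuD/10% it was 3.26, 3.76 and 4.37, and on the control diet 3.27, 3.97 and 4.38. As for Slc2a5 and Khk, all 6 rats on CuD/30% were above the mean of each other diet, and 3 of the 6 were above the highest rat of each. The share of all genes with such a pattern was not counted. The mean was 4.44 ± 0.29 on CuD/30%, against 3.72 ± 0.53 on CuA/30%, 3.77 ± 0.43 on CuD/10% and 3.91 ± 0.42 on the control diet (SD, n = 6 each). The differences from these diets were 0.71 ± 0.23, 0.66 ± 0.23 and 0.53 ± 0.23 (SE), or 1.64-, 1.58- and 1.44-fold. Unadjusted p was 0.00579, 0.0097 and 0.0341, and the adjusted p of limma was 0.463, 0.461 and 0.241, so none was called, and 17.1% of all genes had an unadjusted p under 0.05 against the control diet. With slide as a block they were 0.23, -0.04 and -0.13, so the last 2 turned direction. The 2 rats on CuA/30% that shared slide 1 with the CuD/30% rats had 3.98 and 4.42, and the 4 on slide 2 had 2.90 to 3.94. The copper difference at 30% sucrose exceeded that at 10% by 0.85 ± 0.33 (SE), with an adjusted p of 0.0728, where 33.5% of all genes had an unadjusted p under 0.05. This was called without rat 1 on CuA/30% (0.99), rat 5 on CuD/10% (0.97) or rat 6 of the control diet (0.97), and with slide as a block it was 0.32. Of all genes, 20.8% were called for it with all 24 rats, and 3054 to 4828 genes with 1 rat left out.

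Pfkfb3 encodes a kinase and phosphatase that makes fructose 2,6-bisphosphate, the activator of phosphofructokinase, and its form is known from many tissues besides liver. It was the 1 gene of the 8 that passed the test, and it was lowest in the control rats. Its 2 probes (rat build rn4, per the file headers, plus strand) are shown in full because the result rests on the brighter one and the dimmer one is described below. The brighter one, used for the level, is at chr17:78262283-78262342 and the dimmer one at chr17:78261280-78261339. The third line holds the 250 bases before the gene's start in RefSeq (GRCr8, chr17:71944683-71944932, plus strand), with the E-box letters CACGTG, which are the same on both strands and overlap no other motif searched, in capitals at position -42.
Pfkfb3 brighter probe: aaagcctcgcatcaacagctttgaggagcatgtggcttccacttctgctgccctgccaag
Pfkfb3 dimmer probe: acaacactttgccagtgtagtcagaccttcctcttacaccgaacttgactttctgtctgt
Pfkfb3 promoter: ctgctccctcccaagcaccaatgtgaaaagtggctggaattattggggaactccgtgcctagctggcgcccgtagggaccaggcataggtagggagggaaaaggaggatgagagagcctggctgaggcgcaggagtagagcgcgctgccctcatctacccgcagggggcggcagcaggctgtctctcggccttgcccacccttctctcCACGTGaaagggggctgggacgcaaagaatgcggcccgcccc
These 6 letters are common, standing in 1872 of the 33469 windows (5.59%), and none of the other 7 genes had them in its window.

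The Pfkfb3 level was lowest -3.58, median -3.01 and highest -2.66 on CuD/30%, and -3.28, -2.91 and -2.37 on CuA/30%. It was -3.40, -2.81 and -2.12 on CuD/10%, and -4.23, -3.83 and -3.79 on the control diet. All 18 rats on the other 3 diets were above all 6 control rats, a pattern that 165 of 18641 genes (0.885%) had. The control rats were all on slide 3, with only 2 of the 18, and the share among genes of similar brightness was not counted. The share of all genes whose rats did not overlap, with the first diet higher, was 5.12% for CuD/10% against the control diet, 11.9% for CuA/30% against it and 2.77% for CuD/30% against it. The means were -3.08 ± 0.37, -2.87 ± 0.35 and -2.80 ± 0.44 on those 3 diets, in the order just given, and -3.93 ± 0.18 on the control diet (SD, n = 6 each). Low copper was 1.13 ± 0.20 (SE) higher than adequate copper at 10% sucrose, or 2.19-fold, with an adjusted p of 0.000898 in limma. At adequate copper, 30% sucrose was 1.06 ± 0.20 (SE) higher than 10% sucrose, or 2.08-fold, with an adjusted p of 0.00126. The diet with both changes was 0.84 ± 0.20 (SE) higher than the control diet, or 1.79-fold, with an adjusted p of 0.0366. This last call was lost when any of 9 of the 24 rats was left out (adjusted p up to 0.111), under normexp (0.409), quantile normalization (0.0902), the authors' series table (0.152), both other filters on dim probes (0.0566 and 0.0509) and slide as a random block (0.38). These 3 comparisons share the 6 control rats. The copper difference was -0.21 ± 0.20 (SE) at 30% sucrose, and the sucrose difference was -0.29 ± 0.20 (SE) at low copper, with adjusted p of 0.692 and 0.622. The copper difference at 30% sucrose minus that at 10% sucrose, called the interaction here, was -1.34 ± 0.28 (SE), with an adjusted p of 0.0027.

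These Pfkfb3 calls stand against a wide background. Of all genes, 18.6% were called between low and adequate copper at 10% sucrose, 20.9% between 30% and 10% sucrose at adequate copper, 1.76% between CuD/30% and the control diet, and 20.8% for the interaction. Higher levels made up 18%, 18.4% and 1.72% of all genes in the first 3, and lower levels 0.595%, 2.48% and 0.0376%, and for the interaction 18.9% were called below 0 and 1.94% above. In the second-dimmest quintile of genes by mean level, which holds Pfkfb3, 30.8%, 31.1% and 3.25% were called higher in the first 3 of these comparisons, and the median differences of that quintile were 0.26, 0.27 and 0.15. For the interaction, 31.5% of that quintile were called below 0, and its median was -0.40. In the brightest quintile, which holds 6 of the 8 genes, 0.429%, 1.37% and 0.0268% were called higher. Slc2a5 lay in the second-brightest quintile, with 4.83%, 6.44% and 0.376%.

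**Figure D2:**
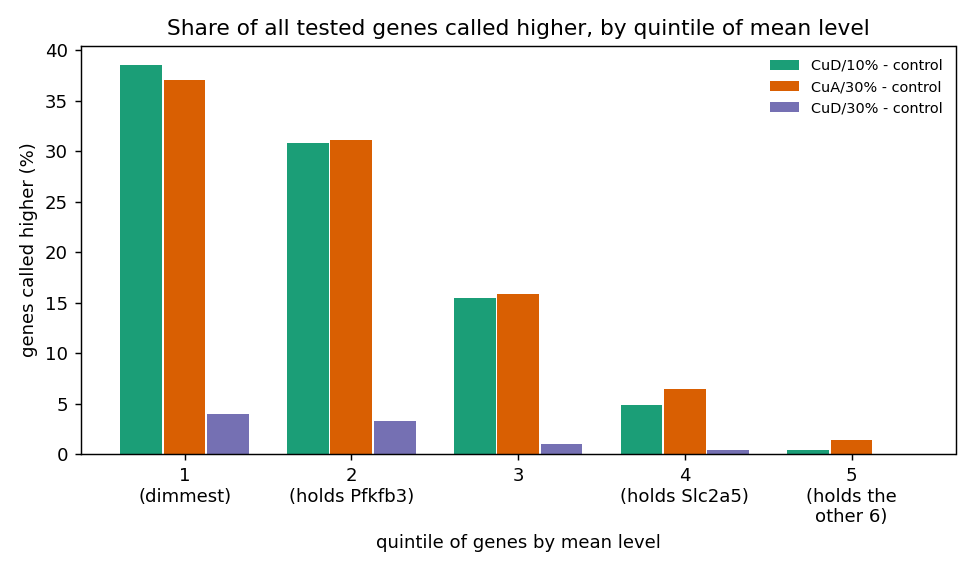
Percent of tested genes called higher (vertical axis) in 3 comparisons, by quintile of all genes ranked by mean level from dimmest to brightest (horizontal axis). The shares are 38.5% and 37.1% in the dimmest quintile for the copper comparison at 10% sucrose and the sucrose comparison at adequate copper, and 0.429% and 1.37% in the brightest.

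With slide as a block, Pfkfb3 was not called in any comparison. Its copper difference at 10% sucrose was then 0.70, its sucrose difference at adequate copper 0.41, the difference of both changes from the control diet 0.21 and the interaction -0.90. On slide 3 the 2 rats on CuD/10% had levels of -3.40 and -3.06, and the 6 control rats had -4.23 to -3.79. This difference of 0.70 had a two-sided exact permutation p of 0.0357, the smallest that 2 rats against 6 allow. On slide 1 the 6 rats on CuD/30% had -3.58 to -2.66, and the 2 on CuA/30% had -3.19 and -2.57, a difference of -0.20 with an exact permutation p of 0.536. Over slides 1 and 3 together the mean difference of low minus adequate copper was 0.25, with an exact permutation p of 0.259. Some markers of other cells were also called in these comparisons. The mean level of the neutrophil markers, all 6 of 6 kept, ran from -4.20 to -3.36 (median -3.97) on CuD/30%, from -3.37 to -0.78 (median -2.94) on CuA/30% and from -4.08 to -1.72 (median -3.37) on CuD/10%, against -4.76 to -4.15 (median -4.36) on the control diet. The red blood cell markers, all 6 of 6 kept, ran from 1.49 to 3.52, from 0.81 to 3.93 and from 1.37 to 2.77 on the same 3 diets, against 0.39 to 1.95 on the control diet. The lymphocyte markers, of which 3 of 5 were kept (Cd3e and Ms4a1 were not), ran from -4.41 to -3.39, from -3.73 to -2.68 and from -4.07 to -2.48, against -4.36 to -3.31. The macrophage markers, all 6 kept, ran from -1.05 to -0.17, from -0.42 to 0.72 and from -1.15 to 1.65, against -1.21 to -0.16. The stellate cell markers, all 5 kept, ran from -1.60 to -1.01, from -1.44 to -0.92 and from -1.90 to -0.86, against -1.62 to -0.97. For copper at 10% sucrose 2 neutrophil, 0 red blood cell, 2 lymphocyte, 1 macrophage and 1 stellate cell marker were called higher, and for sucrose at adequate copper 5, 2, 2, 1 and 2. Of all genes, 18% and 18.4% were called higher in the same comparisons. With slide as a block none of these markers was called in either comparison. The 5 bile duct markers, of which none was called in either, ran from -4.52 to -3.68, from -4.38 to -3.92 and from -4.37 to -3.37, against -4.67 to -3.75. The part of these cells in the Pfkfb3 result was not tested.

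The dimmer Pfkfb3 probe was well above background on 1, 4 and 4 of 6 arrays on CuD/30%, CuA/30% and CuD/10%, and on none of the 6 control arrays. The 8 such arrays on CuA/30% and CuD/10% were all on slide 2. There its mean was -4.98 on CuA/30% and -4.69 on CuD/10%, while the 2 CuA/30% rats on slide 1 averaged -5.66 and the 2 CuD/10% rats on slide 3 averaged -6.22, with none above background. Its fold over the control diet was taken from the diet's measured mean. On each control array it was set against the lowest signal well above background or the probe's own signal, whichever was higher. The fold is not a strict lower limit, since the diets' means hold arrays on which the probe was not well above background. By this measure CuD/10% was 2.37-fold higher than the control diet (measured means -5.20 and -7.30, adjusted p = 0.00085 in limma over all kept probes). CuA/30% was 2.36-fold higher (measured mean -5.21, adjusted p = 0.000674 in limma). Neither fold takes account of slide. The probe passed the filter of 6 or more arrays only through diets other than the control diet. Its p-values against the control diet are therefore no separate support for the brighter probe. With slide as a block, the CuD/10% and CuA/30% differences from the control diet were 1.07 and 0.78. Their adjusted p was 0.611 and 0.9998 in limma over all kept probes, so neither was called. On slide 3, which held all controls, the CuD/10% rats had -6.34 and -6.11, against -7.92 to -6.22 in the 6 control rats. No fold is given for CuD/30%, since 5 of its 6 arrays were not above background (measured mean -6.09, adjusted p = 0.0576). The 2 probes correlated over the 24 rats with a Pearson r of 0.85, and on the dimmer one the lowest rats on CuD/30% (-6.58) and CuD/10% (-6.34), though not on CuA/30% (-6.15), lay below the highest control rat at -6.22.

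**Figure D3:**
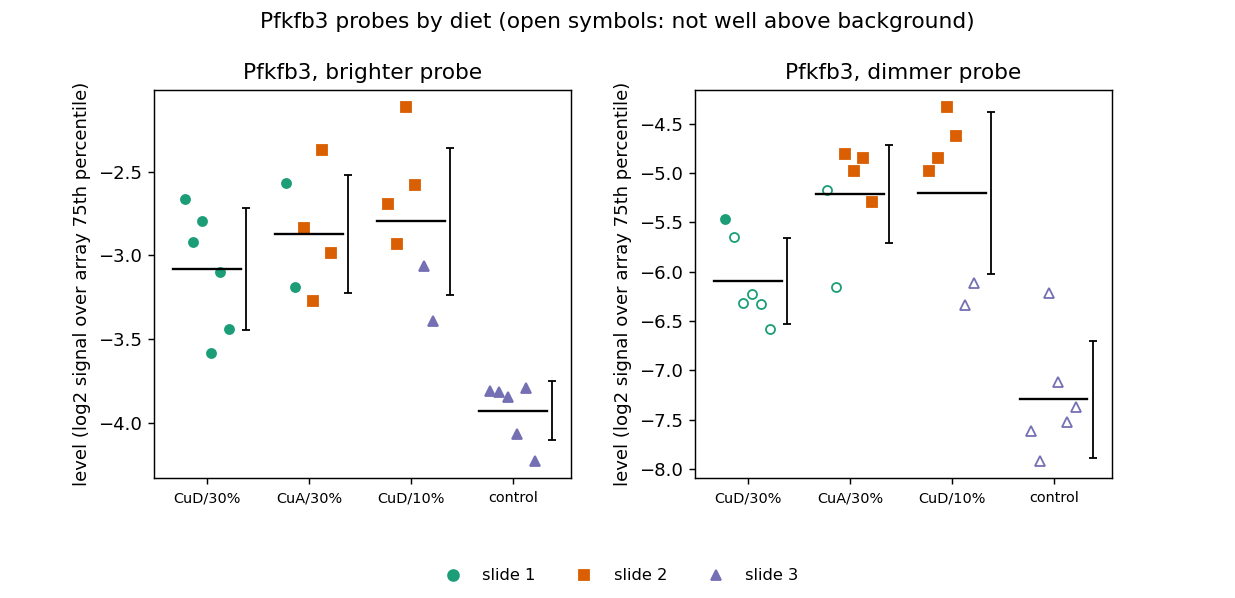
Level of the 2 Pfkfb3 probes (log2 signal over the array's 75th percentile, vertical axes) in each rat by diet, with the slide as shape and colour, the diet's mean as a line and its SD as a bar (n = 6). Open symbols are arrays on which the probe was not well above background, which for the dimmer probe includes all 6 control arrays.

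G6pc (G6pc1 in current annotation) encodes the catalytic subunit of glucose 6-phosphatase, which releases free glucose in the last step of gluconeogenesis and of glycogen breakdown. Its level was lowest 5.29, median 6.02 and highest 6.26 on CuD/30%, and 4.997, 5.78 and 6.29 on CuA/30%. On CuD/10% it was 5.56, 6.32 and 6.82, and on the control diet 5.03, 6.27 and 6.48. The diets overlapped, the differences were between -0.32 and 0.20 within intervals of -0.86 to 0.75, and the smallest adjusted p was 0.479. The slide block put them between -0.83, for sucrose at low copper, and 0.10, within -2.02 to 0.88, and none was called. Its second probe followed the first with a Pearson r of 0.89. The probes disagreed in direction for copper at 10% sucrose, where the first gave a difference of 0.20 and the second -0.20, and the second gave -0.80 for sucrose at adequate copper where the first gave -0.29.

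Pck1 encodes the cytosolic phosphoenolpyruvate carboxykinase, an early step of gluconeogenesis that fasting raises. On CuD/30% its level was lowest 4.53, median 5.14 and highest 5.31, and on CuA/30% it was 4.49, 4.95 and 5.73. On CuD/10% it was 4.11, 5.13 and 5.64, and on the control diet 4.61, 5.23 and 5.66. The differences were between -0.24 and 0.12 within intervals of -0.76 to 0.65, and the smallest adjusted p was 0.629. They were between -0.04 and 0.42 with slide as a block, within -0.86 to 1.61. Fbp1 encodes fructose 1,6-bisphosphatase, which reverses the phosphofructokinase step. Its level was lowest 7.64, median 7.83 and highest 8.09 on CuD/30%, and 7.71, 7.84 and 8.04 on CuA/30%. It was 7.36, 7.80 and 8.17 on CuD/10%, and 7.73, 7.84 and 8.04 on the control diet. Fbp1 had the narrowest intervals of the 8 genes, with differences between -0.08 and 0.06 within -0.31 to 0.29, and a smallest adjusted p of 0.717. Under the slide block they were between -0.14 and -0.01 within -0.69 to 0.43.

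**Figure D4:**
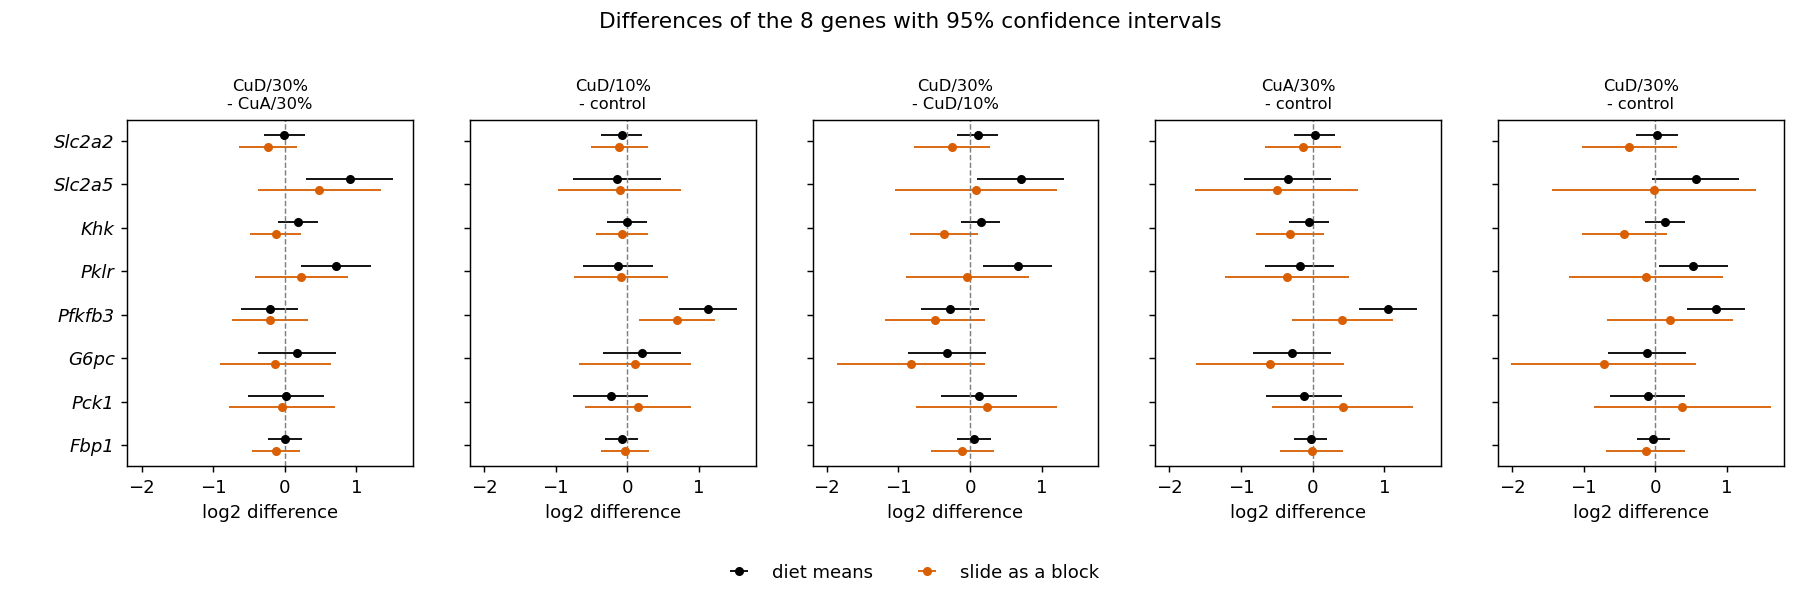
Log2 differences of the 8 genes (horizontal axes, first-named diet minus second) in the 5 comparisons between pairs of diets, with 95% confidence intervals from limma. Black points compare the diet means and orange points come from the fit with slide as a block. Pfkfb3 intervals lie above 0 in the 3 comparisons with the control diet for the diet means, and in the copper comparison at 10% sucrose for the block fit.

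Over the 8 genes, the number called was 0 for low against adequate copper at 30% sucrose and for 30% against 10% sucrose at low copper, where 0% of all genes were called. At an unadjusted p under 0.05, 1839 genes (9.87%) and 1786 genes (9.58%) passed in these 2 comparisons, and Slc2a5 and Pklr were among them in both. Of the 8 genes, 6, 2, 6, 2 and 5 had a difference above 0 in the 5 comparisons in the order of the plot of differences, with medians of 0.09, -0.08, 0.11, -0.09 and 0.08. The medians over all genes were -0.04, 0.05, -0.05, 0.07 and 0.05. The medians of the 8 with slide as a block were -0.12, -0.05, -0.18, -0.22 and -0.13, all below 0, and 4, 1, 4, 2 and 5 of the 8 differences changed sign. For the mean copper and the mean sucrose difference, none of the 8 genes and 0% of all genes were called, and 1640 genes (8.8%) and 2013 genes (10.8%) had an unadjusted p under 0.05. Pfkfb3 was among both of these, with 0.46 ± 0.14 for copper and 0.38 ± 0.14 for sucrose (SE), and adjusted p of 0.36 and 0.368. Within slides 1 and 3 together, where copper can be compared at 1 sucrose level, the mean difference of low minus adequate copper lay between -0.17 for Slc2a2 and 0.25 for Pfkfb3. The smallest two-sided exact permutation p over 784 regroupings within slides was 0.213, for Slc2a2, before adjustment for 8 genes.

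Rats with more Slc2a5 RNA also had more Pklr RNA. Over the 24 rats Pearson's r was 0.83 and Spearman's rho 0.87, each with a permutation p of 1e-05, the smallest that 100000 permutations can give, and 0.00028 after Benjamini-Hochberg adjustment over the 28 pairs of genes. For every pair the permutations shuffled all 24 rats without regard to diet or slide, so shifts shared within a diet or slide enter these p-values. How often other pairs of genes on the array reach such r was not counted. Without the 2 rats farthest from the median of Slc2a5, r was 0.81. It was 0.88, 0.49 and 0.92 within slides 1, 2 and 3 (8 rats each), and 0.76 for deviations from the diet means. Khk correlated with Fbp1 (r = 0.71, rho = 0.68, adjusted permutation p of 0.00098 and 0.00504) and with Slc2a2 (r = 0.67, rho = 0.65, adjusted permutation p of 0.00308 and 0.00681), and both held at 0.64 and 0.70 without the 2 farthest rats and at 0.58 or more within each slide. Slc2a2 with Slc2a5, Khk with Slc2a5, Slc2a2 with Fbp1 and Slc2a2 with Pklr passed for r (0.59, 0.59, 0.59 and 0.54), and without the 2 farthest rats r was 0.46, 0.56, 0.59 and 0.44. Their r within slides 1, 2 and 3 was 0.35, 0.25 and 0.94, then 0.31, 0.48 and 0.60, then 0.69, 0.67 and 0.44, then 0.13, 0.15 and 0.88, so the ties of Slc2a2 to Slc2a5 and Pklr were closest on slide 3. The last 2 missed for rho, each with an adjusted permutation p of 0.051, and Khk with Pklr passed for rho alone (0.52, adjusted permutation p = 0.0487), with r of -0.04, -0.17 and 0.72 within the slides. G6pc and Pck1, which fasting raises together, had r = 0.46 with an adjusted permutation p of 0.0836, and 0.73, 0.36 and 0.42 within the slides. Pfkfb3 correlated with none of the others past the test, its r values lying between -0.23 with Pck1 and 0.17 with Khk.

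**Figure D5:**
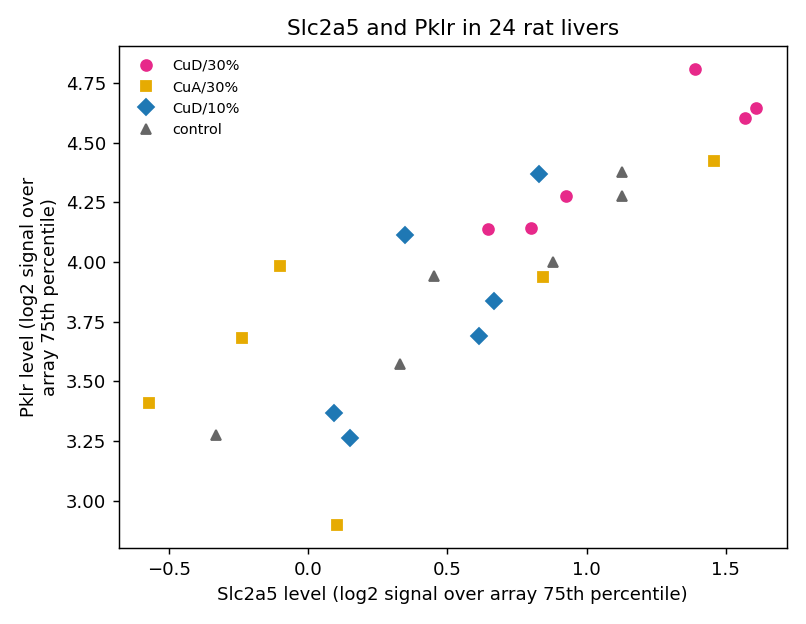
Slc2a5 level (horizontal axis) against Pklr level (vertical axis), both as log2 signal over the array's 75th percentile, in 24 rats, with the diet as colour and shape. The points run from low in both genes to high in both, with r = 0.83, and the rats on CuD/30% lie towards the upper right.

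The genes most like each member over the 24 rats were taken as the 3 with the highest Pearson r among all genes tested, and are given without a test. For Pklr they were Acaca (0.88), which encodes acetyl-CoA carboxylase, Slc2a5 (0.83) and Fasn (0.83), which encodes fatty acid synthase. For Slc2a5 they were Elovl6 (0.84), a fatty acid elongase, Pklr (0.83) and Dlat (0.81), a subunit of pyruvate dehydrogenase. For Slc2a2 they were Rbks (0.80), Ptgr1 (0.80) and Pdha1 (0.80), for Khk Atp5hl1, RGD620382 (now Dnph1) and Atp5h (now Atp5pd) with 0.88 to 0.89, and for Fbp1 Chchd10 (0.80), an unnamed probe and Etfb (0.77). For G6pc they were LOC685227 (0.96, now Wfdc11), Kctd6 (0.78) and LOC500300 (0.76, now Depp1), and for Pck1 Cobl (0.81), March8 (0.80, now Marchf8) and Jak1 (0.77). Pfkfb3 was most like Pcdhga2 (0.97), a protocadherin gene, and 2 probes with no gene name.

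Around the 8 genes, 72 further genes of fructose handling, glycolysis, gluconeogenesis, their regulators, glycogen and the pentose phosphate pathway were tested, of 75 listed. None was called in the comparisons of copper at 30% sucrose, of sucrose at low copper, of both changes against the control diet, or of the mean copper and mean sucrose differences. At 10% sucrose 5 of the 72 were higher and none lower on low than on adequate copper, where 18% of all genes were called higher and 0.595% lower. They were Arrdc4 (1.01, adjusted p = 0.00337), a ChREBP target in the family of Txnip, G6pc3 (0.87, adjusted p = 0.00541), the widely expressed glucose 6-phosphatase, Hk2 (0.81, adjusted p = 0.022), a hexokinase typical of muscle, Pfkl (0.51, adjusted p = 0.0369), the liver phosphofructokinase, and Crtc2 (0.37, adjusted p = 0.0393), a CREB coactivator. At adequate copper 6 were higher and 5 lower on 30% than on 10% sucrose, where 18.4% of all genes were called higher and 2.48% lower. Hk2 (0.91), Aldoc (0.64), Pfkfb4 (1.07), G6pc3 (0.60), Igfbp1 (1.24) and Crtc2 (0.40) rose, with adjusted p between 0.011 and 0.0459. Slc2a8 (-1.14), a hexose transporter, Pc (-0.43), the pyruvate carboxylase that starts gluconeogenesis, Gpt (-0.66), Cebpa (-0.72) and Ugp2 (-0.68) fell, with adjusted p between 0.0054 and 0.039. Among the genes called higher, Arrdc4 and Pfkfb4 lay in the dimmest quintile, with means of -6.07 and -6.80 on the control diet. Hk2 and G6pc3 lay in the second-dimmest, with -3.67 and -3.50. In these 2 quintiles 38.5% and 30.8% of genes were called higher for copper at 10% sucrose. For sucrose at adequate copper the shares were 37.1% and 31.1%. Where no gene of a list was called, the one with the smallest p is named. For copper at 10% sucrose these were Sord (-0.29), Ppp1r3b (-0.67) and Taldo1 (-0.24), with adjusted p of 0.0592 or more, and for sucrose at adequate copper Txnip (-0.36) and Taldo1 (-0.26), with adjusted p of 0.19 or more. For copper at 30% sucrose these were Dak (0.49), Pfkfb1 (0.62), Pc (0.28), Mlxipl (0.24), Igfbp1 (-1.28), Ugp2 (0.76) and Rpe (0.33), with adjusted p of 0.463 or more. For sucrose at low copper they were Aldh1b1 (0.95), Gpi (0.43), G6pc3 (-0.36), Arrdc4 (-1.01), Nr3c1 (0.33), Gys2 (0.40) and Rpe (0.46), with adjusted p of 0.35 or more. For both changes against the control diet they were Aldh1b1 (0.61), Hk2 (0.69), G6pc3 (0.51), Txnip (-0.31), Creb1 (0.27), Gys2 (0.21) and Rpe (0.35), with adjusted p of 0.133 or more. The interaction was called above 0 for 7 genes and below 0 for 6, against 1.94% and 18.9% of all genes. Outside the glycogen genes these were Sord (0.56), Pc (0.53) and Nr3c1 (0.78) above 0, and Aldoc (-0.93), Hk2 (-1.04), G6pc3 (-0.96), Arrdc4 (-1.23), Igfbp1 (-1.84) and Crtc2 (-0.59) below 0. In the pentose phosphate list, where none was called, it was Taldo1 (0.47, adjusted p = 0.0867). With slide as a block none of the 72 was called, and Hk2 turned to -0.01 for copper at 10% sucrose. For sucrose at adequate copper Hk2 turned to -0.35, Aldoc to -0.60 and G6pc3 to -0.07.

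The members' neighbours in fructose handling and gluconeogenesis had 1 and 3 of these calls for sucrose at adequate copper among 8 genes each, where 20.9% of all genes were called. All 8 glycogen genes had differences above 0 for copper at 30% sucrose and for sucrose at low copper, with medians of 0.37 and 0.30, and none had one above 0 for copper at 10% sucrose and for sucrose at adequate copper, with medians of -0.21 and -0.33. The interaction was called for 4 of the 8, Ugp2 (0.99), Gys2 (0.55), Gbe1 (1.19) and Ppp1r3b (1.05), with adjusted p between 0.0213 and 0.0325, where 1.94% of all genes were called above 0. In the fit with slides as blocks, the glycogen median was 0.16 for copper at 30% sucrose, 0.00 for sucrose at low copper, -0.15 for copper at 10% sucrose, -0.20 for sucrose at adequate copper and 0.48 for the interaction, and none was called.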

How the data were processed

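Liver RNA of 24 rats was hybridised to 24 one-colour Agilent arrays of 62976 spots, 1 per rat. Agilent Feature Extraction 10.7.3.1, per the submitters' processing notes, gave each spot's intensity, which per the file headers was background-subtracted and detrended. The deposited files also hold 0/1 marks per spot (well above background, saturated, outlier), set by the same software. The authors' series table holds a score per probe, which ranks as the mean signal does on every array (rank correlation 1), with each array at median 0 and interquartile range 1. Its scale was not stated and it was used as an alternative, put back on the signal scale with a multiplier of 662 and an added 115.

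Control spots (4259) and outlier spots (0.652%) were left out, and spots of a probe were averaged. The level is log2 of the processed intensity minus that of the array's 75th percentile. A probe was kept if well above background on 6 or more arrays (21179 of 30367), and the brightest kept probe stood for a gene name (18641 of 26278 names). limma 3.58.1 in R 4.3.3 was fitted to all 4 diets without a block, with Benjamini-Hochberg adjustment over all genes. The fit was tested on simulated data that held no slide differences and no correlation between genes, so that test does not cover the slides. There it found 17.7% of changes of 0.5 on the log2 scale and 80.3% of changes of 1. The precision is limited by the number of arrays, 6 per diet. Replicate numbers did not pair rats: deviations of same-numbered rats correlated between -0.29 and 0.36. All 8 genes were named by rule, and a member's difference was followed through the alternatives where its unadjusted p was under 0.05. For each pathway list and comparison, the rule named up to 3 called genes with the smallest p. Where none was called it named the gene with the smallest p, which is left out here for the mean differences, and Ppp1r3b was named for the interaction after its values were seen. The members and lists were chosen with earlier results of these data known. Alternatives were normexp background correction, quantile normalization, the authors' series table, other filters on dim probes, the mean of a gene's probes, array weights, only the diets compared, slide as a fixed or random block, a replicate block, and leaving out each rat, with the other Pfkfb3 probe (also with slide as a block) and leaving out slide 2 added after seeing the data. Gene names came from the array files, updated through RefSeq accessions, and all 8 members matched. Promoters are RefSeq's, build GRCr8. Figures were drawn with matplotlib 3.10.9.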

Additional observations from a re-analysis of the deposited data

Results flagged for a closer look

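Pck1 in rat 3 on CuD/30% had a level of 4.53, far from the other 5 rats of its diet, the nearest of which had 5.11. It was the 1 such rat among 32 groups of 6 examined (8 genes in 4 diets), and chance gives about 1 in 20 groups.

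The copper difference of Pfkfb3 differed between the sucrose levels. Low minus adequate copper was -0.21 at 30% sucrose and 1.13 at 10% sucrose, a gap of -1.34 with an adjusted p of 0.0027 in limma. The share of all genes called for this gap was 20.8%, and 31.5% of the genes in the quintile of Pfkfb3 were called below 0. With slide as a block the gap was -0.90 and not called.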

How the results depend on the processing

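Pfkfb3 kept its direction in its 3 comparisons with the control diet and in the interaction under all alternatives tried, with ranges of 0.60 to 2.09 for copper at 10% sucrose, 0.41 to 2.09 for sucrose at adequate copper, 0.21 to 1.20 for both changes and -2.98 to -0.69 for the interaction. Its adjusted p ranged over 5.54e-05 to 0.71, 0.000364 to 0.9998, 0.00354 to 0.998 and 0.000419 to 0.359. With slide as a fixed block the number of the 8 genes called was 0 in all 4 of these, also with the other probe of Pfkfb3. In the fit with slide as a fixed block on the probes used, 30 of the 64 differences of the 8 genes changed sign, 7 of 8 for mean sucrose. Among them Pklr turned to -0.0375 for sucrose at low copper, -0.13 for both changes and -0.20 for mean sucrose, and Pfkfb3 to -0.0395 for mean sucrose. With slide 2 left out the number called was 0 for copper at 10% sucrose and for the interaction. For both changes against the control diet it was 0 under normexp, quantile normalization, the authors' series table, no filter on dim probes, the filter on all arrays, slide as a fixed or random block, and the other probe of Pfkfb3. With array weights it was 1 for the mean copper difference, where Pfkfb3 had 0.59, and 3 for the interaction, where Slc2a5 had 1.18 and Pklr 0.91. Leaving out 1 rat in turn gave 0 to 1 for both changes, with 0 in 9 of 24 cases (rats 1, 2, 3 and 5 on CuD/30%, and rats 1, 2, 3, 4 and 6 of the control diet), and 1 to 3 for the interaction, and the number of all genes called was then 0 to 986 for both changes, 0 to 41 for sucrose at low copper, and 0 to 19 and 0 to 1 for the mean copper and sucrose differences. The counts of all genes called moved more. For copper at 10% sucrose 3469 became 2059 under normexp, 2112 under quantile normalization, 1856 in the authors' table, 1866 with the filter on all arrays, 2286 with a random and 0 with a fixed slide block, and 0 without slide 2. For sucrose at adequate copper 3888 became 2345, 2334 and 2267 under normexp, the authors' table and the filter on all arrays, 1231 and 0 with the random and fixed slide block, and 1736 without slide 2. For both changes 328 became 0 under normexp, the authors' table and either slide block, 6 under quantile normalization, 75 without the filter, 10 with the filter on all arrays, 2126 with array weights, 986 with only the 2 diets compared and 1015 without slide 2. For the interaction 3884 became 2309 in the authors' table, 2294 with the filter on all arrays, 1808 and 10 with the random and fixed slide block, and 0 without slide 2. For copper at 30% sucrose 0 became 20 with the fixed slide block and 6 without slide 2, for sucrose at low copper 0 became 6 with the fixed slide block, and for the mean differences 0 became 875 for copper with array weights and 952 for sucrose without slide 2. The causes were not tested. With no filter on dim probes the median of all genes moved to 0.15 for copper at 10% sucrose and 0.18 for sucrose at adequate copper. With a replicate block 639 genes were called for both changes in place of 328, and no count of the 8 genes changed. A rat correlated best with the rat of its own number in 6 of 30 cases, so the numbers were taken as names. The slides limit what can be told from these arrays, since diet and slide overlap in part and sucrose differences rest on comparisons between slides.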
